A study of Mus musculus with 14 samples.

Results

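The plasma cell identity genes described here were Prdm1, Irf4, Xbp1, Sdc1, Mzb1, Jchain, Derl3 and Fkbp11. These 8 genes were taken from the array by matching the accession of each probe to a RefSeq symbol, which gave 13 probes. Of these, 11 were well above background on 7 or more of the 14 arrays. Thus 7 of the 8 genes were tested, among 24908 tested genes or unnamed transcripts. Fkbp11 was the gene not tested, and its values are given apart.

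Splenocytes, with the red blood cells lysed, were taken from 7 WT mice (C57BL/6) and 7 Sting gt/gt mice (Tmem173gt, the golden ticket allele). That allele was made by ENU mutagenesis on C57BL/6. The WT mice were bought from a supplier and the Sting gt/gt mice came from another laboratory. The labels give both groups an age of 10 to 14 weeks, which the methods give as the age at immunization. RNA was taken 2 weeks after an injection of CFA + CII, that is, complete Freund's adjuvant with chick type II collagen. No array of an unimmunized mouse was analysed here. RNA of each mouse was labelled with one dye and read on one Agilent array. The comparison asks which transcripts of the spleen differ between immunized mice with and without STING.

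Plasma cells are the end state of the B lineage, in which a B cell shuts down its earlier identity and turns to the secretion of antibody. IRF4 and Blimp-1, the product of Prdm1, start and hold this state, and XBP1, a transcription factor of the unfolded protein response, enlarges the endoplasmic reticulum (ER). Syndecan-1, the product of Sdc1, is the surface proteoglycan CD138 by which plasma cells are recognised, and the other members serve the making of antibody. In the spleen such cells appear after immunization and are few among splenocytes. In RNA of whole splenocytes, fewer cells of a type and less RNA per cell cannot be told apart.

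The RefSeq promoter windows of Derl3, Sdc1 and Jchain are shown. Of the tested members, these had the genotype differences that changed most between the 2 sets of mice described further on. Their log2 fold changes were below 0 in the first set and above 0 in the second, though for Sdc1 the genotypes overlapped in the first. Each window runs from 250 bases before the start site to 50 bases after it, on the strand of the gene (GRCm38.p6). Capitals mark CCACG, read on either strand, and the paired CCAAT of any complete ER stress response element (ERSE), the element to which XBP1 and ATF6 are known to bind and which reads CCAAT, 9 bases of any kind, then CCACG.
Derl3, chr10:75893148-75893447, plus strand: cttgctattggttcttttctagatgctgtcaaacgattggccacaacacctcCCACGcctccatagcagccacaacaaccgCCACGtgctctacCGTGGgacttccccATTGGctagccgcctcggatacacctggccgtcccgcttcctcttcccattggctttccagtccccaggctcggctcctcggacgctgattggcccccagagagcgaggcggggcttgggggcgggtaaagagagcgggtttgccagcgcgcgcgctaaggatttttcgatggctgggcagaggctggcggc
Sdc1, chr12:8771146-8771445, plus strand: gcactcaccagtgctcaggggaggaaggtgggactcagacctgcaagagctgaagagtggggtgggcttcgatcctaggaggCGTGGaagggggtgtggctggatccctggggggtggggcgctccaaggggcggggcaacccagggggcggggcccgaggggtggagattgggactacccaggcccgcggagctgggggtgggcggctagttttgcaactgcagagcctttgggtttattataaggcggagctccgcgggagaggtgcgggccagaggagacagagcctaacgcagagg
Jchain, chr5:88527848-88528147, minus strand: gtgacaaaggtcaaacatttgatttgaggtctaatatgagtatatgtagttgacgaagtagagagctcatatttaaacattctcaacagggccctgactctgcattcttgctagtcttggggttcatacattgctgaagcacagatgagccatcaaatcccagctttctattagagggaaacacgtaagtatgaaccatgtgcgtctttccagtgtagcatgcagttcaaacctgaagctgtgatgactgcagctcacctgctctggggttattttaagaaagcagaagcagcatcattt
The Derl3 window held a complete ERSE on the reverse strand, at positions -156 to -138 from the start site, and 3 matches to CCACG in all, 1 of them within this ERSE. Across 32851 promoter windows of this length, 39 (0.119%) held a complete ERSE on either strand and 32.8% held CCACG. The Sdc1 window had 1 match to CCACG and the Jchain window none. The windows of Prdm1, Irf4, Xbp1 and Fkbp11 held no ERSE, and Xbp1 held no CCACG either. No window of a member held TGACGTGG, another element bound by XBP1, which 0.676% of all windows held. A match is a run of letters and not a measured binding site.

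Values are log2 processed signals with the 75th percentile of each array set to 0, so a value of 1 lies 1 log2 unit above that percentile. Levels are compared between arrays for the same probe and not between probes. The scanner files carried 2 scan days, with replicates 1 to 3 of both genotypes read on the first and replicates 4 to 7 on the second, and 9673 of the 24908 genes (38.8%) passed an adjusted p under 0.05 between these days in limma. The arrays lay on 6 slides. The 4 WT arrays of the second scan day lay on 2 slides and the 4 of Sting gt/gt mice on another, and there the slide cannot be told apart from the genotype. Between 30781 and 34400 of 56605 probes were well above background. Sting1, the targeted gene, had log2 signals of 2.85 to 3.33 in WT mice, which overlapped with 2.92 to 3.29 in Sting gt/gt, so this transcript gave no check of the labels.

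Across all 14 arrays no tested member passed an unadjusted p under 0.05 between the genotypes by limma, where 882 of 24908 genes (3.54%) did. Blocking on the replicate number gave 1408 such genes, and again no member. With scan day as a term, 1803 genes passed, and Sdc1 was the member among them. Its log2 fold change there was 0.39 (standard error 0.17, unadjusted p = 0.0362, adjusted p = 0.680 by limma). In the first fit, without covariates, the log2 fold changes of the members lay between -0.15 for Prdm1 and 0.39 for Sdc1. Their median was 0.09, and the median over all tested genes was 0.02. The groups overlapped in each of the 7. After Benjamini-Hochberg adjustment over all genes, that fit gave an adjusted p of 0.999 for each member by limma. The number of arrays limits the precision, and the 95% confidence interval of Derl3 ran from -0.45 to 0.61 and that of Sdc1 from -0.07 to 0.86.

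The pooled comparison joined 2 sets of mice in which part of the members moved in opposite directions. In replicates 1 to 3, Derl3 and Jchain were lower in Sting gt/gt mice, and in replicates 4 to 7 Sdc1, Derl3, Jchain and Xbp1 were higher. Thus 2 of 7 tested members were lower in the first set, against 300 of all 24908 genes (1.20%), and 4 of 7 were higher in the second, against 3104 (12.5%), at an unadjusted p under 0.05 by limma. In the second set 1 member, Sdc1, passed the adjustment over all genes, as did 316 genes (1.27%). The median log2 fold change of the members was -0.09 in the first set and 0.32 in the second, beside 0.00267 and 0.04 for all tested genes. Prdm1, Irf4 and Mzb1 passed in neither set.

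**Figure D1:**
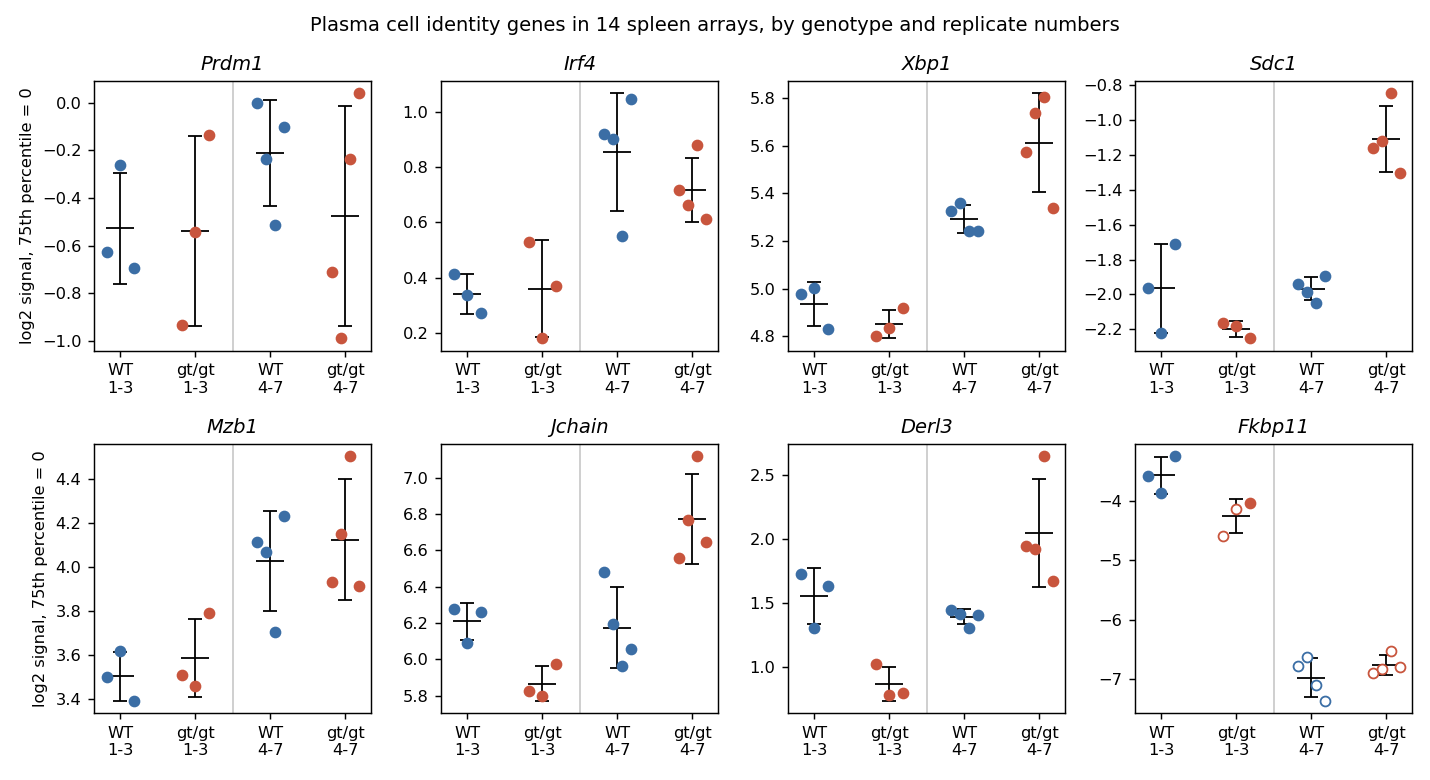
Log2 processed signal (75th percentile of each array = 0) of the 8 genes on each of the 14 arrays, by genotype and replicate numbers. Filled points were well above background and open points were not, and the bars give the mean ± SD (n = 3 or 4 arrays). In replicates 4 to 7, the Sting gt/gt arrays of Sdc1, Jchain and Derl3 all lie above the WT arrays, and in replicates 1 to 3 those of Jchain and Derl3 all lie below them.

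Among the transcription factors, Prdm1 encodes Blimp-1, the repressor that ends the B cell programme. Its log2 signal had a lowest value of -0.69, a median of -0.26 and a highest of 0.00 in WT mice, and in Sting gt/gt mice these were -0.99, -0.54 and 0.04. The Sting gt/gt arrays spread further on both sides than the WT arrays and covered their range. The log2 fold change was -0.15 (standard error 0.18), -0.01 in replicates 1 to 3 and -0.26 in replicates 4 to 7. The SD among mice was 0.27 in WT and 0.40 in Sting gt/gt over all arrays, wider than the gap between the group means. A two-sided exact permutation test of that gap, which did not take account of the scan day, gave p = 0.402.

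Irf4 encodes a factor that is needed at a low level in activated B cells and at a high level in plasma cells. Its lowest, median and highest log2 signals were 0.27, 0.55 and 1.05 in WT and 0.18, 0.61 and 0.88 in Sting gt/gt mice. The groups lay within the same range, and the log2 fold change was -0.07 (standard error 0.15, exact permutation p = 0.635). Arrays of Irf4 differed by scan day, by 0.44 on the log2 scale (standard error 0.09, adjusted p = 0.00217 by limma), and each array of the second scan day lay above each array of the first. In the deposited series table the days overlapped.

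Xbp1 is the factor through which plasma cells raise the genes of the secretory pathway. Its log2 signals in replicates 1 to 3 were 4.976, 5.002 and 4.829 in WT and 4.80, 4.84 and 4.92 in Sting gt/gt mice. Those of replicates 4 to 7 were 5.32, 5.36, 5.24 and 5.24 in WT and 5.58, 5.74, 5.80 and 5.34 in Sting gt/gt mice. The first set overlapped, and in the second 3 of 4 Sting gt/gt arrays lay above every WT array, the exception being replicate 7. The log2 fold change was -0.09 (standard error 0.13) in the first set and 0.32 (standard error 0.12, unadjusted p = 0.0246, adjusted p = 0.153 by limma) in the second. The exact permutation test over 70 ways gave p = 0.0571 in the second set, where the smallest possible is 0.0286.

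Sdc1 encodes syndecan-1. Its log2 signals in replicates 1 to 3 were -1.96, -2.22 and -1.71 in WT and -2.16, -2.18 and -2.25 in Sting gt/gt mice. The values of replicates 4 to 7 were -1.94, -1.99, -2.05 and -1.90 in WT and -1.16, -1.12, -0.85 and -1.30 in Sting gt/gt mice. WT arrays averaged -1.97 in both sets, and the Sting gt/gt arrays averaged -2.20 in the first and -1.11 in the second. In the deposited series table WT means went instead from 7.19 to 6.76 and Sting gt/gt means from 6.95 to 7.64. How that table was normalized is not given, and in it no gene passed an adjusted p under 0.05 between scan days by limma. In the first set the groups overlapped, and in the second each Sting gt/gt array was above all WT arrays, as for 2077 genes (8.34%). The log2 fold change was -0.23 (standard error 0.16) in the first set and 0.86 (standard error 0.12, adjusted p = 0.0297 by limma) in the second.

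Among the genes that serve antibody secretion, Jchain encodes the joining chain that links polymeric IgM and IgA. Its log2 signals in replicates 1 to 3 were 6.27, 6.09 and 6.26 in WT and 5.82, 5.80 and 5.98 in Sting gt/gt mice. Replicates 4 to 7 had 6.48, 6.19, 5.96 and 6.06 in WT and 6.56, 6.77, 7.12 and 6.65 in Sting gt/gt mice. All Sting gt/gt arrays were below all WT arrays in the first set, as for 938 genes (3.77%). They were above them in the second, as for 2077 genes (8.34%). The log2 fold change was -0.34 (standard error 0.14, unadjusted p = 0.038, adjusted p = 0.9999 by limma) in the first set and 0.60 (standard error 0.16, unadjusted p = 0.00402, adjusted p = 0.0769 by limma) in the second.

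Derl3 encodes a derlin, a membrane protein of the pathway that returns misfolded proteins from the ER for degradation. Its log2 signals in replicates 1 to 3 were 1.72, 1.30 and 1.63 in WT and 1.02, 0.78 and 0.79 in Sting gt/gt mice. The second set had 1.441, 1.412, 1.303 and 1.405 in WT and 1.95, 1.92, 2.65 and 1.67 in Sting gt/gt mice. The groups did not overlap in either set, and the order of the genotypes was turned. Sting gt/gt arrays were all below in the first, as for 938 genes (3.77%), and all above in the second, as for 2077 (8.34%). WT means were 1.55 and 1.39 in the 2 sets, and Sting gt/gt means were 0.86 and 2.05. How far each genotype moved between the sets depended on the values read. With no scaling, WT means were 10.4 and 10.3 and Sting gt/gt means 9.69 and 10.9. In the deposited series table WT means went from 10.6 to 10.1 and Sting gt/gt means from 9.98 to 10.7. How that table was normalized is not given, and in it no gene passed an adjusted p under 0.05 between scan days by limma. What part of the WT fall there comes from that processing was not tested. The log2 fold change was -0.69 (standard error 0.16, unadjusted p = 0.00369, adjusted p = 0.9999 by limma) in the first set and 0.66 (standard error 0.19, unadjusted p = 0.00696, adjusted p = 0.0933 by limma) in the second.

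Exact permutation tests gave p = 0.1 for Derl3 and Jchain in replicates 1 to 3, which is the smallest that 3 against 3 allows. For replicates 4 to 7 they gave 0.0286 for Sdc1, Jchain and Derl3, the smallest that 4 against 4 allows (two-sided exact permutation tests).

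Mzb1 encodes an ER protein of marginal zone B cells and plasma cells that helps assemble and secrete IgM. Its lowest, median and highest log2 signals were 3.39, 3.70 and 4.23 in WT and 3.46, 3.92 and 4.51 in Sting gt/gt mice. The log2 fold change was 0.08 (standard error 0.15) in replicates 1 to 3 and 0.10 (standard error 0.17) in replicates 4 to 7. The genotypes overlapped in each set. As for Irf4, its signal differed by scan day, by 0.53 on the log2 scale (standard error 0.11, adjusted p = 0.00204 by limma).

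Fkbp11 encodes a prolyl isomerase of the ER in secretory cells, and had one probe, well above background on 4 of the 14 arrays. These were WT replicates 1, 2 and 3 and Sting gt/gt replicate 3. Its log2 signals in replicates 1 to 3 were -3.58, -3.87 and -3.24 in WT and -4.58, -4.13 and -4.04 in Sting gt/gt mice. No array of replicates 4 to 7 was well above background, with signals between -7.38 and -6.53. The Sting gt/gt arrays of the first set thus lay below the WT arrays, as for Derl3 and Jchain, but 2 of these 3 give only a bound, and no fold change was taken.

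**Figure D2:**
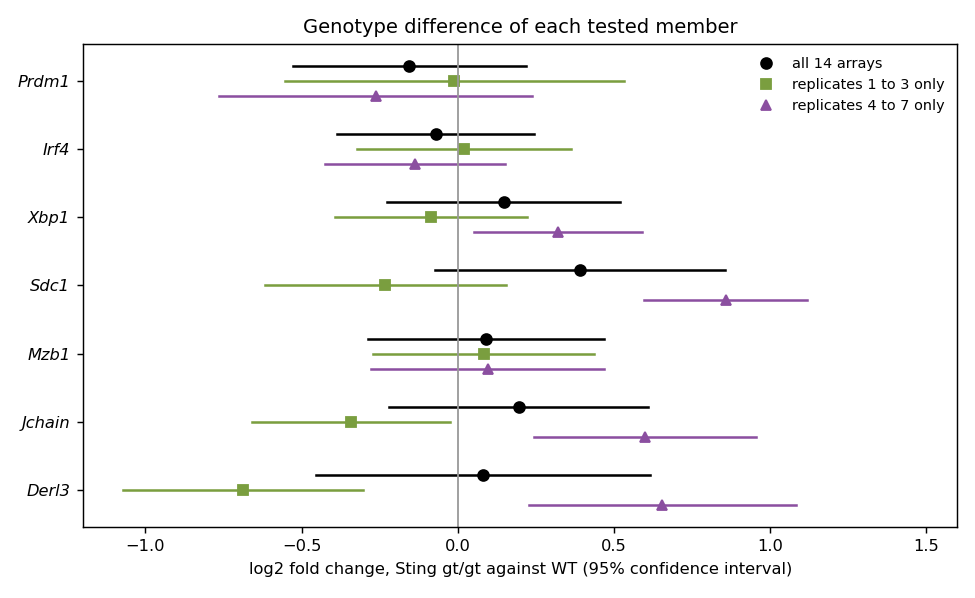
Log2 fold change (Sting gt/gt against WT) of the 7 tested members with its 95% confidence interval by limma, for all 14 arrays, for replicates 1 to 3 and for replicates 4 to 7. The intervals of Derl3 and Jchain lie below 0 in replicates 1 to 3 and above 0 in replicates 4 to 7, and those of Sdc1 and Xbp1 lie above 0 in replicates 4 to 7.

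The difference between the 2 sets was itself tested, as the interaction of genotype with scan day. It passed the adjustment over all genes for Sdc1 and Derl3, that is 2 of 7 tested members, where 122 of 24908 genes (0.490%) passed. The genotype difference of Derl3 was larger in the second set by 1.34 on the log2 scale (standard error 0.27, adjusted p = 0.0494 by limma) and that of Sdc1 by 1.09 (standard error 0.19, adjusted p = 0.0371). For Jchain it was 0.94 (standard error 0.21, adjusted p = 0.0594), and for Xbp1 0.41 (standard error 0.16, adjusted p = 0.212). At an unadjusted p under 0.05 these 4 members were the ones that passed with a rise on the second scan day, as 2297 genes (9.22%) did. Prdm1 (-0.25, 95% confidence interval -0.998 to 0.494), Irf4 (-0.16, from -0.56 to 0.24) and Mzb1 (0.01, from -0.49 to 0.51) did not pass.

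Permuting the genotypes within each scan day (1400 ways, two-sided exact permutation test) gave p = 0.00143 for Derl3 and Jchain, the smallest possible, p = 0.00429 for Sdc1 and p = 0.0129 for Xbp1. The direction of the interaction held for Derl3, Sdc1, Jchain and Xbp1 in all 21 alternative settings tried, each with one choice or one array changed. Each of these settings read Xbp1 from the same probe, and its 2 other probes gave interactions of -0.07 and 0.10. The adjusted call was less firm, since under these settings the adjusted p lay between 0.0283 and 0.143 for Sdc1 and between 0.0296 and 0.143 for Derl3, while the unadjusted p did not exceed 0.000931 for Derl3 and 0.000221 for Sdc1. Neither the limma interaction nor the permutation took account of the slide. On the second scan day the slide cannot be told apart from the genotype, so these p-values cover both together. What set the mice of the 2 scan days apart besides the scan is not given in the sources used here, and its part in the result was not tested.

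With genotype in the model, limma placed 5 of the 7 tested members under an adjusted p of 0.05 for the scan day, beside 38.8% of all genes. All 5, namely Xbp1 (0.56), Sdc1 (0.54), Mzb1 (0.53), Irf4 (0.44) and Jchain (0.44), were higher on the second scan day on the log2 scale. Derl3 differed by 0.51 (adjusted p = 0.0809) and Prdm1 by 0.19 (adjusted p = 0.411). Fkbp11 went the other way, with the arrays on which it was well above background all on the first scan day. The deposited series table held no such differences, since there 0 of 24908 genes (0.00%) passed the adjustment for the scan day in limma and 348 an unadjusted p under 0.05. The members differed in it by 0.10 for Xbp1, 0.13 for Sdc1, 0.24 for Mzb1, 0.19 for Irf4 and 0.25 for Jchain.

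For 3 members there were further probes. The second probe of Sdc1 moved with the first, with log2 fold changes of -0.21 (standard error 0.29) in replicates 1 to 3 and 0.85 (standard error 0.12, adjusted p = 0.0328 over all tested probes by limma) in replicates 4 to 7. Its signals in the second set lay between -2.36 and -2.30 in WT and between -1.71 and -1.22 in Sting gt/gt mice, again with no overlap. The interaction of this second probe was 1.06 (standard error 0.30, adjusted p = 0.104 over all tested probes by limma) and did not pass. In that fit over probes the adjusted p was 0.0479 for the first probe of Sdc1 and 0.0572 for the probe of Derl3. The third probe of Sdc1 was not well above background on any array. The 2 other probes of Xbp1 had positive log2 fold changes in both sets (0.27 and 0.20 for one, 0.20 and 0.30 for the other) with none past the threshold, and their interactions were -0.07 and 0.10. For Irf4 the second probe was at -0.31 in the first set and 0.04 in the second, neither past the threshold. All 3 probes of Xbp1 thus had log2 fold changes above 0 in replicates 4 to 7, with 1 past the threshold, and that one alone had a value below 0 in replicates 1 to 3.

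The deposited series table, which the authors normalized in a way not given in the sources used here, gave the same calls of members within each set. In replicates 1 to 3 of it, Derl3 (-0.60, standard error 0.15) and Jchain (-0.34, standard error 0.13) were lower, 2 of 7 members beside 1.39% of all genes. For replicates 4 to 7, Sdc1 (0.89), Derl3 (0.62), Jchain (0.61) and Xbp1 (0.25) were higher, 4 of 7 beside 11.1%. Across all 14 arrays of that table Sdc1 alone passed, at 0.40 (standard error 0.17, unadjusted p = 0.0338, adjusted p = 0.619 by limma), beside 7.74% of all genes. For Fkbp11 the table gave 3.78, 3.58 and 4.02 in WT replicates 1 to 3 and 3.06, 3.35 and 3.40 in the Sting gt/gt replicates 1 to 3. Its values in replicates 4 to 7 lay between 3.06 and 3.16, except for 3.76 in Sting gt/gt replicate 6.

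Only 2 slides, both of the first scan day, held both genotypes. On the slide with 2 WT and 1 Sting gt/gt array, Derl3 was lower in the Sting gt/gt mouse by a log2 difference of -0.49 and Jchain by -0.36. On the slide with 1 array of each genotype the differences were -0.85 for Derl3 and -0.46 for Jchain. Sdc1 was also lower on both, at -0.07 and -0.47, whereas the signs of Prdm1, Irf4, Xbp1 and Mzb1 differed between the slides. With slide as a fixed block, Derl3 was at -0.65 (unadjusted p = 0.0315) and Jchain at -0.40 (unadjusted p = 0.0481 by limma). Both had an adjusted p of 0.9997, and 885 of 24908 genes passed the unadjusted threshold in that fit. It compares the 5 arrays of these 2 slides, all of which are also among replicates 1 to 3. No such value within a slide exists for replicates 4 to 7. With slide as a random block over all 14 arrays, Sdc1 was at 0.05 (unadjusted p = 0.789 by limma) in place of 0.39, and the median of the members was -0.06 in place of 0.09.

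Beyond the members, 20 other plasma cell genes were read, all tested. Across all arrays 1 was higher at an unadjusted p under 0.05 and none lower, beside 3.54% of all genes in either direction, with a median of 0.04. The first set had 2 that were lower (Creld2 and Ell2), beside 1.20% of all genes, and 1 that was higher (Eaf2), beside 2.57%, and the median was -0.13. The second set had 5 that were higher (Tnfrsf17, Txndc5, Creld2, Cd93 and Eaf2), beside 12.5% of all genes, and none lower, with a median of 0.16. Tnfrsf17 encodes BCMA, the receptor through which plasma cells receive survival signals, and it went from -0.14 (standard error 0.14) in the first set to 0.78 (standard error 0.15) in the second. Txndc5, a disulfide isomerase of the ER, went from -0.32 to 0.59. The interaction was positive at an unadjusted p under 0.05 in 6 of the 20 and negative in none, beside 4 of 7 members and 9.22% of all genes, and passed the adjustment in none of the 20 (adjusted p = 0.0594 for Txndc5, Creld2 and Tnfrsf17). Eaf2, an elongation factor known from germinal centre B cells and plasma cells, was higher in both sets, by 1.13 and 0.90. Across all arrays it had the lowest p of the list (unadjusted p = 0.000257, adjusted p = 0.641 by limma), with a log2 fold change of 0.999 (standard error 0.21).

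A list of 29 targets of XBP1 and ER secretory genes was also tested in full. Across all arrays Sdf2l1, an ER chaperone partner, was higher (0.35, standard error 0.14, unadjusted p = 0.0274, adjusted p = 0.999 by limma) and no other gene passed, a share near the 3.54% of all genes. For replicates 1 to 3, 3 genes were lower, namely Hspa5 (-0.34), Manf (-0.33) and Pdia6 (-0.31), beside 1.20% of all genes, and none higher. For replicates 4 to 7, 10 were higher, beside 12.5% of all genes, and 1 lower, beside 11.3%. Among the higher were Hyou1 (0.65), an ER chaperone, Pdia6 (0.55), a disulfide isomerase, and Sdf2l1 (0.56), and the lower gene was Sec61g (-0.28). Pdia6 passed the adjustment for the interaction (0.86, standard error 0.17, adjusted p = 0.0466), and 9 of the 29 had a positive interaction at an unadjusted p under 0.05, beside 9.22% of all genes, with none negative. A fall in the first set together with a rise in the second, of any size, was seen in 18 of 29 genes of this list, 12 of 20 other plasma cell genes and 4 of 7 tested members, beside 32.3% of all tested genes. It was also seen in 4 of 6 neutrophil markers and 4 of 8 proliferation genes. Among the genes that had a RefSeq window (7 of the 8 members, 16 of the 20 other plasma cell genes and 23 of the 29 targets), a complete ERSE stood in those of Derl3, Creld2, Dnajc3, Hspa5, Pdia6 and Syvn1, and of these Dnajc3 and Syvn1 passed in neither set. The 12 immunoglobulin constant genes listed were paired with no probe through their accessions and were not analysed here.

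**Figure D3:**
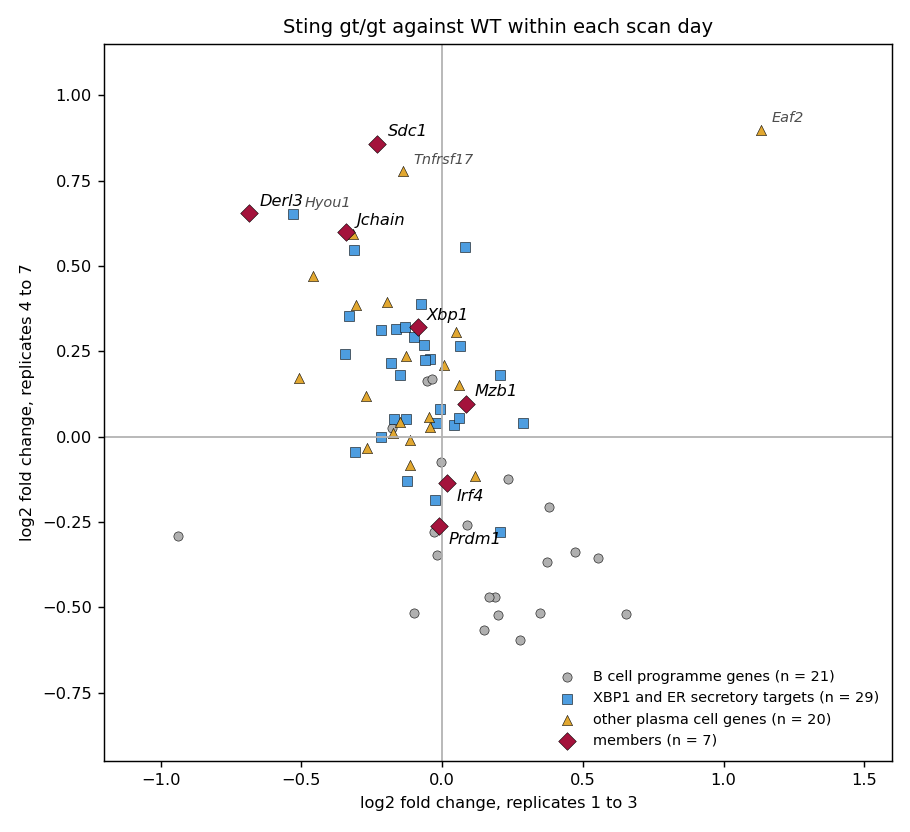
Log2 fold change (Sting gt/gt against WT) within replicates 1 to 3 (horizontal) and within replicates 4 to 7 (vertical) for the tested members and 3 related gene lists, 1 point per gene. Sdc1, Derl3, Jchain and Xbp1 lie at the upper left with 18 of 29 XBP1 and ER secretory targets and 12 of 20 other plasma cell genes, and most B cell programme genes lie in the lower part, with 18 of 21 below 0 in replicates 4 to 7.

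Genes of the B cell programme, which plasma cells turn down, mostly went the other way between the sets, with a median interaction of -0.59. The log2 fold change was below 0 in 8 of the 21 in replicates 1 to 3 and in 18 in replicates 4 to 7. A fall in the first set with a rise in the second was seen in 3 of them. Of 21, all tested, 1 was higher in replicates 1 to 3, beside 2.57% of all genes, and none lower. In replicates 4 to 7, 9 were lower and none higher, beside 2807 genes lower in all (11.3%). The interaction was negative at an unadjusted p under 0.05 in 11 of the 21, beside 9.19% of all genes, and positive in none. Pax5, the factor that holds B cell identity, was at 0.20 in the first set and -0.52 in the second (standard error 0.14, unadjusted p = 0.00375 by limma). Ebf1 was the gene of this list past the threshold across all arrays (-0.34, standard error 0.14, unadjusted p = 0.0282 by limma), beside 3.54% of all genes.

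The 6 B cell markers, with Ms4a1, Cd79a and Cd79b among them, all belong to that list of 21 and are no further evidence. Their log2 fold changes were all above 0 in replicates 1 to 3, with none past the threshold. All were below 0 in replicates 4 to 7, where 5 passed, beside 11.3% of all genes that were lower. Their mean log2 signal lay between 1.62 and 1.94 in WT and 1.92 and 2.41 in Sting gt/gt mice of the first set, and between 2.09 and 2.65 and between 1.74 and 2.08 in the second. All 5 erythroid markers had log2 fold changes below 0 in both sets, and 4 passed in replicates 4 to 7, beside the same 11.3%. Their mean log2 signal in that set lay between 5.03 and 5.51 in WT and 4.614 and 5.001 in Sting gt/gt mice. Of 6 neutrophil markers 4 had log2 fold changes below 0 in replicates 1 to 3. All 6 neutrophil markers were above 0 in replicates 4 to 7, where 2 passed, beside 12.5% of all genes that were higher. Their median log2 fold change went from -0.17 to 0.25 and their median interaction was 0.41, as was that of the members. The means of that second set lay between 4.38 and 4.57 in WT and 4.19 and 5.08 in Sting gt/gt mice. Among 6 NK cell markers 1 was higher in each set, beside 2.57% of all genes in the first and 12.5% in the second. Among 5 plasmacytoid dendritic cell markers 1 was higher in the first set, beside the same 2.57%. In the second, 1 was higher and 1 lower, beside 12.5% and 11.3% of all genes. None of 7 T cell markers, 8 macrophage and monocyte markers or 8 proliferation genes passed in either set. All markers counted here were well above background on 7 or more arrays. The part of these cell types in the values of the members was not tested.

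The likeness of the members was read after the mean of each genotype and scan day was removed, so that the comparison above could not enter it. Over 14 arrays 18 of the 21 pairs of tested members had a positive correlation, with a median Pearson's r of 0.46. The share of positive pairs among all genes was not taken, so this count is a description only. Differences between slides or in the mix of cells within a group were not removed. The closest pair was Sdc1 and Derl3 (r = 0.811, exact permutation p = 0.0116, Spearman's rho = 0.789, exact permutation p = 0.00834), and r was 0.801 without the 2 arrays farthest from the median of Sdc1. Irf4 and Mzb1 followed (r = 0.722, exact permutation p = 0.0207, rho = 0.688, p = 0.0228), with r = 0.553 without such arrays. For Derl3 and Jchain r was 0.691 (exact permutation p = 0.0223, rho = 0.727, p = 0.0144) and 0.470 without them. None of the 21 pairs passed the adjustment over the pairs, with a lowest adjusted p for r of 0.0962, for Irf4 and Derl3 (exact permutation, 20736 orders within the 4 groups). Prdm1 took part in all 3 negative correlations, with Sdc1 (-0.23), Xbp1 (-0.13) and Derl3 (-0.12). The one with Xbp1 rested on a pair of arrays, since r was 0.664 without the 2 arrays farthest from the median of Prdm1. Without the 2 farthest for Xbp1, its correlation turned from 0.55 to -0.35 with Derl3 and from 0.26 to -0.56 with Sdc1.

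**Figure D4:**
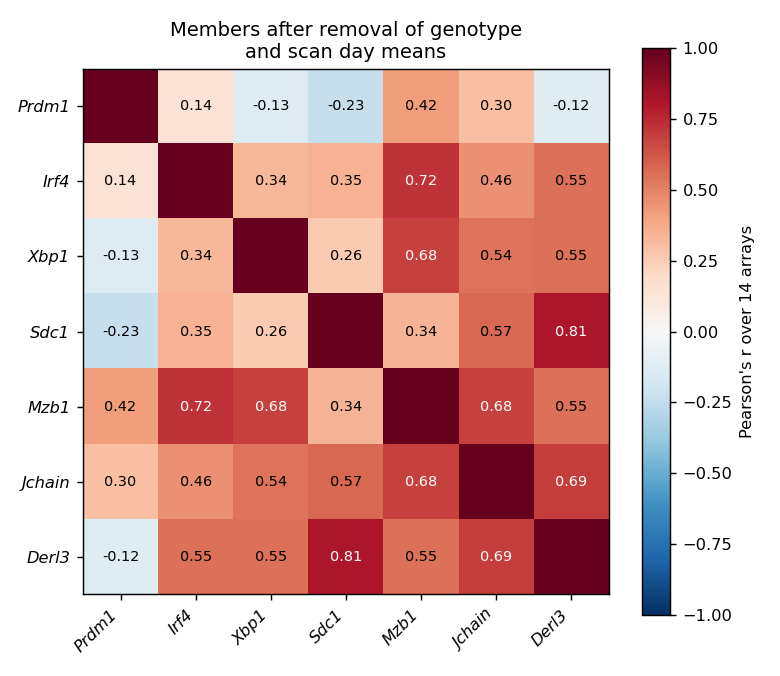
Pearson's r between each pair of the 7 tested members over 14 arrays after removal of the mean of each genotype and scan day (red positive, blue negative). The 3 negative values are all in the row of Prdm1, and the highest value, 0.81, is that of Sdc1 and Derl3.

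Among 14717 other genes with a symbol, the 5 most like the mean of the tested members on the same scale were Ear10, Prdm14, Tnfrsf17, Rnase2a and Ear1. Their Pearson's r over 14 arrays lay between 0.877 and 0.919, and between 0.741 and 0.831 without the 2 arrays farthest from the median. These are the highest of many correlations and are given as a description. Tnfrsf17 stands among the 20 other plasma cell genes, while Ear1, Ear10 and Rnase2a encode ribonucleases of the eosinophil type. None of the 5 passed in the comparison of genotypes across all arrays (unadjusted p from 0.0648 for Tnfrsf17 to 0.375 for Prdm14 by limma), and the log2 fold changes of the ribonucleases were positive in both sets.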

How the data were processed

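RNA of splenocytes was read on 14 one-colour Agilent arrays, 7 of WT and 7 of Sting gt/gt mice. Per the file headers, the authors extracted the intensity values with Agilent Feature Extraction 11.0.1.1, so that background was subtracted spot by spot and no scaling across arrays was applied. A second deposited file holds log2 values of the same arrays, and how they were normalized is not given in the sources used here. Its column medians lay between 5.49 and 5.52, and its correlation with the scanner values of the same array was 0.997 to 0.999 over probes.

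Processed signals were put on a log2 scale and the 75th percentile of each array was subtracted. Outlier-flagged spots were dropped and repeated spots averaged. RefSeq accessions, without versions, named 32994 of 56605 probes (58.3%). Probes not well above background on 7 or more arrays were dropped, and the brightest remaining probe stood for a gene. Promoter windows came from RefSeq (GRCm38.p6), where 7 of the 8 members matched.

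Genotypes were compared by limma 3.58.1 (lmFit, eBayes) in R 4.3.3 without covariates, at an unadjusted p under 0.05, with Benjamini-Hochberg adjustment over 24908 genes, and again per scan day and with an interaction. Exact permutation tests and plots used Python 3.11.15, scipy 1.17.1 and matplotlib 3.10.9. The fits were tested on simulated data with independent noise for each array. These held no slide effect, so that test does not cover the layout of the slides. Arrays give no counts, and their number limits the precision.

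The members and lists were chosen with earlier results of these data known. Genes named were the members, Sting1, list genes past the unadjusted threshold in any of the fits, the 5 genes most like the members and, chosen after their values were seen, the genes with an ERSE. Some list genes past the threshold are not reported here by name. For list genes within a scan day this is wider than the rule first set, which named those past it across all arrays. Same-numbered arrays deviated from their group means together (r of 0.155 to 0.533 across genes). A fit with a block for the replicate number was therefore run beside the main fit, which does not pair the arrays. With scan day means removed r fell to between -0.41 and 0.25. What else same-numbered arrays share was not tested. With the replicate block 1408 genes passed in place of 882. Alternatives covered scaling, background correction, the deposited table, filters, flags, probes, tests, weights, replicate number, scan day, slide and each array left out. Those of the table by scan day, of each member's interaction and of the difference between scan days were added after the data were seen.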

Additional observations from a re-analysis of the deposited data

Results flagged for a closer look

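The genotype difference of 2 members differed between the scan days by a test of that difference, the interaction of genotype with scan day in limma over all genes. For Sdc1 it was 1.09 on the log2 scale (standard error 0.19, adjusted p = 0.0371), with log2 fold changes of -0.23 in replicates 1 to 3 and 0.86 in replicates 4 to 7. In the second set 4 of 4 Sting gt/gt arrays lay above every WT array. For Derl3 it was 1.34 (standard error 0.27, adjusted p = 0.0494), with -0.69 in the first set, where 3 of 3 Sting gt/gt arrays lay below every WT array, and 0.66 in the second, where 4 of 4 lay above. Among all 24908 tested genes, the Sting gt/gt arrays lay below every WT array in 938 (3.77%) in the first set. They lay above every WT array in 2077 (8.34%) in the second. For that second set the slide cannot be told apart from the genotype. Among the tested members no array stood apart from its group by Dixon's test, in 28 groups of 7 or 4 arrays tested.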

How the results depend on the processing

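No tested member passed an unadjusted p under 0.05 across all arrays, and this count became 1 with the deposited series table and with scan day as a term (Sdc1 both times), 2 under array weights with an intensity trend (Sdc1 and Jchain), 2 with slide as a fixed block and 2 in replicates 1 to 3 (Derl3 and Jchain), and 4 in replicates 4 to 7. In the series table by scan day it was 2 and 4. With each array left out in turn it was 0 to 1, the 1 being Sdc1 without Sting gt/gt replicate 1, 2 or 3 (0.49, 0.49 and 0.50). The count over all genes, 882, became 1928 with the series table, 4419 under array weights with an intensity trend, 1803 with scan day as a term, 439 with slide as a random block, 5911 in replicates 4 to 7 and 5905 there in the series table. It was 885 with slide as a fixed block and 939 in replicates 1 to 3. It became 1408 with the replicate block, which changed no call of a member (Sdc1 0.39, unadjusted p = 0.0847). With single arrays left out it lay between 494 and 1963, the Sting gt/gt arrays behind shifts of over 1.5 times being replicates 6 (494), 5 (530) and 1 (1963). The median of the members, 0.09, was -0.22 with slide as a fixed block, and between -0.011 and 0.207 with arrays left out. With slide as a random block the median was -0.065, and Sdc1 fell to 0.053 (unadjusted p = 0.789). Signs turned with slide as a random block for Derl3 (-0.30), Jchain (-0.10) and Xbp1 (-0.019), and with slide as a fixed block for Derl3 (-0.65), Jchain (-0.40), Sdc1 (-0.24), Xbp1 (-0.11) and Irf4 (0.049). In replicates 1 to 3 they turned for Derl3 (-0.69), Jchain (-0.34), Sdc1 (-0.23), Xbp1 (-0.085) and Irf4 (0.019), in that set of the series table for Derl3 (-0.60), Jchain (-0.34), Sdc1 (-0.25), Xbp1 (-0.023) and Irf4 (0.025), and in replicates 4 to 7 of the series table for Mzb1 (-0.0086). Without Sting gt/gt replicate 6, Derl3 was -0.10 and Mzb1 -0.01, while with arrays left out Derl3 reached 0.21 and Mzb1 0.16. The count of members with an interaction past the adjustment, 2, became 1 with quantile normalization, median centring and the series table (Sdc1 each time), and 0 with no scaling and with no filter on dim probes, beside 68, 0 and 0 of all genes with median centring, no scaling and no filter, and 293 with probes well above background on all arrays, against 122. With single arrays left out it was 0 to 3, and 0 to 682 over all genes. Derl3 kept its adjusted call without Sting gt/gt replicates 4 and 7 and lost it without each of the other 12 arrays. Sdc1 lost its call without each array but WT replicate 5 and Sting gt/gt replicates 2, 4 and 7. The interaction of Mzb1, 0.01, was -0.15 with quantile normalization, -0.17 with normexp and -0.15 with the series table, and -0.11 to 0.11 with arrays left out. The count of members that differed between scan days, 5, became 0 with the series table and was 5 or 6 with the other scalings, of which median centring moved the median scan day difference of all genes from 0.0049 to 0.17. The cause of these shifts was not tested. The limit on depth is signal over background, which for Fkbp11 sufficed on 4 arrays.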
